A study of Mus musculus with 120 samples.

Results

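The antigen receptor loci are the 6 stretches of the mouse genome from which B and T lymphocytes assemble their receptors: Igh, Igk and Igl for immunoglobulins, and Tcra, Tcrb and Tcrg for T cell receptors. They were taken as written in the RefSeq gene table of GRCm38, the same coordinates as mm10, and every called window that overlapped a locus or lay within 10 kb of it is a member. This gave 29 of the 8961 called windows of the study, all 29 of them inside a locus. The members were thus chosen by the authors' own p-values and differences as well as by position, and those values describe them without testing them. DNA methylation had been measured by whole-genome bisulfite sequencing, in which unconverted cytosines are read as methylated. The groups are hippocampus and blood of mice labelled APP-nlgf and of mice labelled Wild-type at postnatal weeks 3, 8 and 24, which makes 12 groups of 10 libraries, 5 male and 5 female, and 120 libraries in all. APP-nlgf mice are a knock-in model in which the mouse's own App gene carries a humanised amyloid-beta stretch with familial Alzheimer mutations, in every cell of both tissues. The sources used here do not give age beyond the postnatal week, pooling of animals, or whether both tissues came from the same mice. The authors set APP-nlgf against Wild-type separately at each week in each tissue, and sex entered the model as a covariate. Only the authors' list of called 1 kb windows was analysed, so levels, coverage and values per library cannot be shown and the depth behind each difference is unknown. Tissue identity could not be checked against marker genes for the same reason. A difference is in percentage points of methylation and is read as APP-nlgf less Wild-type. That reading comes only from how the comparisons are named, and every direction would turn if it were the other way.

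An antigen receptor gene is built by joining a variable (V) segment to a joining (J) segment, in some loci with a diversity (D) segment between them, in front of a constant (C) region. The RAG recombinase cuts beside the chosen segments and end-joining factors seal the break, so DNA between them is deleted or inverted in that cell. B cells rearrange Igh, Igk and Igl, and T cells rearrange the T cell receptor loci, while cells of other kinds keep them in germline order. Blood DNA is therefore a mixture of rearranged and germline copies, and hippocampal DNA is expected to be nearly all germline. In such bulk DNA, a change in the mix of cells and a change of methylation within a cell type cannot be told apart.

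Methylation in these tissues sits mostly on CpG sites, so the sequences below show what promoters of differing CpG content look like. They are the 250 bases before the gene start from RefSeq, build GRCm38.p6, written 5′ to 3′ on the gene's strand with each CpG in capitals. Nhej1 and Atm are shown because theirs were the only promoters of recombination genes that overlapped a called window, and Gm46962 because its promoter was the nearest to a called window among those at the loci.
Nhej1 (chr1:75125227-75125476, minus strand): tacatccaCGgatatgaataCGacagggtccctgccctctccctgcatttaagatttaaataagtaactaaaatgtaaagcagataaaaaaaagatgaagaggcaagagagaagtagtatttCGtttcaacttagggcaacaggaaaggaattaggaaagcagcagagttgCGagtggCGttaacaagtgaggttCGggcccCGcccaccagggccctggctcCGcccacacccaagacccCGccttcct
Atm (chr9:53536672-53536921, minus strand): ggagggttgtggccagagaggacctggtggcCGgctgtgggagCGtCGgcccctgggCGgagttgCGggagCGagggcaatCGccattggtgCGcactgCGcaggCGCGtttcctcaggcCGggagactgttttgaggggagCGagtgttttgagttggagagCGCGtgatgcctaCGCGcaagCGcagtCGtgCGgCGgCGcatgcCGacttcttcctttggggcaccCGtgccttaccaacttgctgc
Gm46962 (chr6:70220705-70220954, minus strand): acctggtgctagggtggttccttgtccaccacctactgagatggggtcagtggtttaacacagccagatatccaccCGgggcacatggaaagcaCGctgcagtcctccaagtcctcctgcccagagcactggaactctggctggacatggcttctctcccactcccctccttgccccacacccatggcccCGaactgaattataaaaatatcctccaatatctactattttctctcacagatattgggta

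Atm held 24 CpG sites, where 89.3% of all promoters held that many or fewer, Nhej1 held 9, and Gm46962, a long noncoding RNA gene inside Igk, held 3. The table of promoters matched 0 of the 666 V, D, J and C rows of the loci, so no segment promoter is shown. It held 31 promoters of other genes at the loci, among them trypsinogen, olfactory receptor and Adam6 genes. These 31 had a median of 0 CpG sites and a highest count of 7, against a median of 6 over 32619 promoters in the genome. Of the promoters at the loci 0% had at least 10 sites, against 38.0% of all promoters. Promoters that overlapped a lower window in blood at week 8 had a median of 17.5 sites, and 84.9% of them had at least 10. None of the 31 promoters at the loci overlapped a called window in any of the 6 lists, and the one nearest to a window, Gm46962, lay 9.05 kb from it. Of all 32619 promoters, 1764 overlapped a lower window in blood at week 8. At that share few of 31 would do so, so none among 31 is no trait of the loci. The share over all 6 lists was not worked out.

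**Figure D1:**
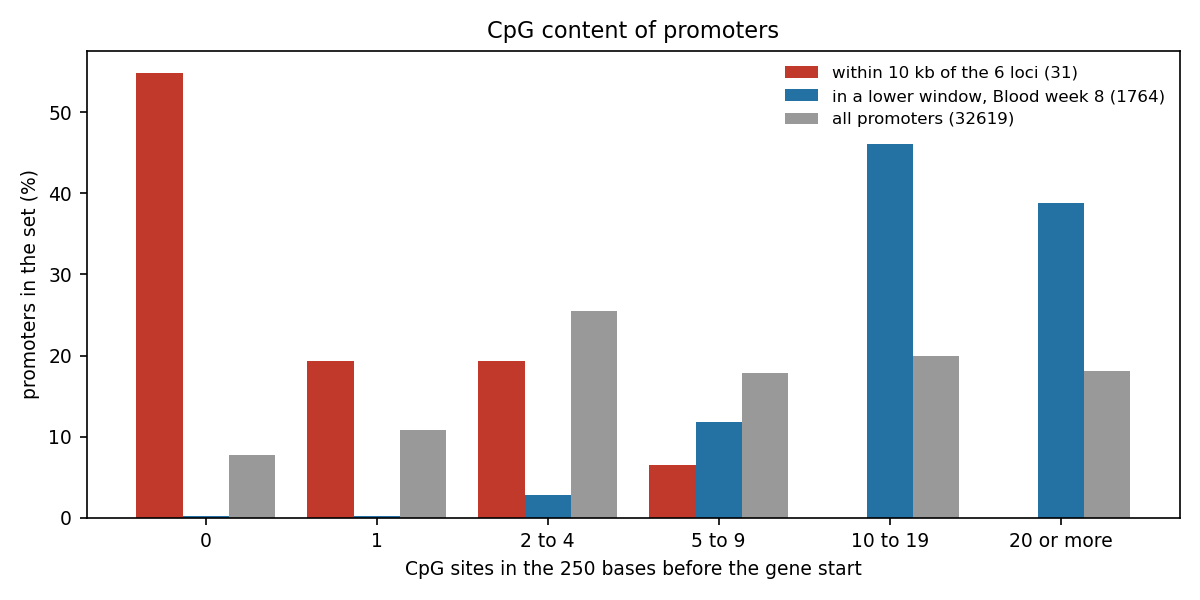
Share of promoters (%, vertical axis) by the number of CpG sites in the 250 bases before the gene start (horizontal axis), for 31 promoters within 10 kb of the receptor loci, 1764 promoters overlapping a lower window in blood at week 8, and all 32619 promoters, a set that includes the other two. Of the promoters at the loci 54.8% held no CpG site and none held 10 or more.

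Called windows were found at 4 of the 6 loci and in 5 of the 6 comparisons. Igh held 12, Igk 7, Tcra 7 and Tcrb 3, while Igl and Tcrg held 0. In hippocampus there were 0 windows at the loci at week 3, 2 at week 8 and 7 at week 24. In blood there were 3 at week 3, 13 at week 8 and 4 at week 24. The 6 loci with their flanks cover 8924 positions of the 1 kb grid. In hippocampus 0% of these positions were called at week 3, against 0.044% of all tested windows, 0.0224% at week 8, against 0.0318%, and 0.0784% at week 24, against 0.0408%. In blood 0.0336% were called at week 3, against 0.0495% of all tested windows, 0.146% at week 8, against 0.196%, and 0.0448% at week 24, against 0.0244%. Over the 6 lists the loci held 29 windows, where the genome's share gives 34.5. Leaving out called windows within 1 kb of either end of a protein-coding gene turns this round, with 28 windows at the loci where the genome's share gives 26.3. Gene ends stay in the tested windows and locus positions behind that 26.3, so it is not a fully matched share. By ratio the largest departures were hippocampus at week 24, with 7 windows where the genome's share gives 3.64, and hippocampus at week 3, with 0 where it gives 3.93. How many windows were tested at the loci themselves is not known, and these shares were not tested because the loci were chosen with results of these data known.

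**Figure D2:**
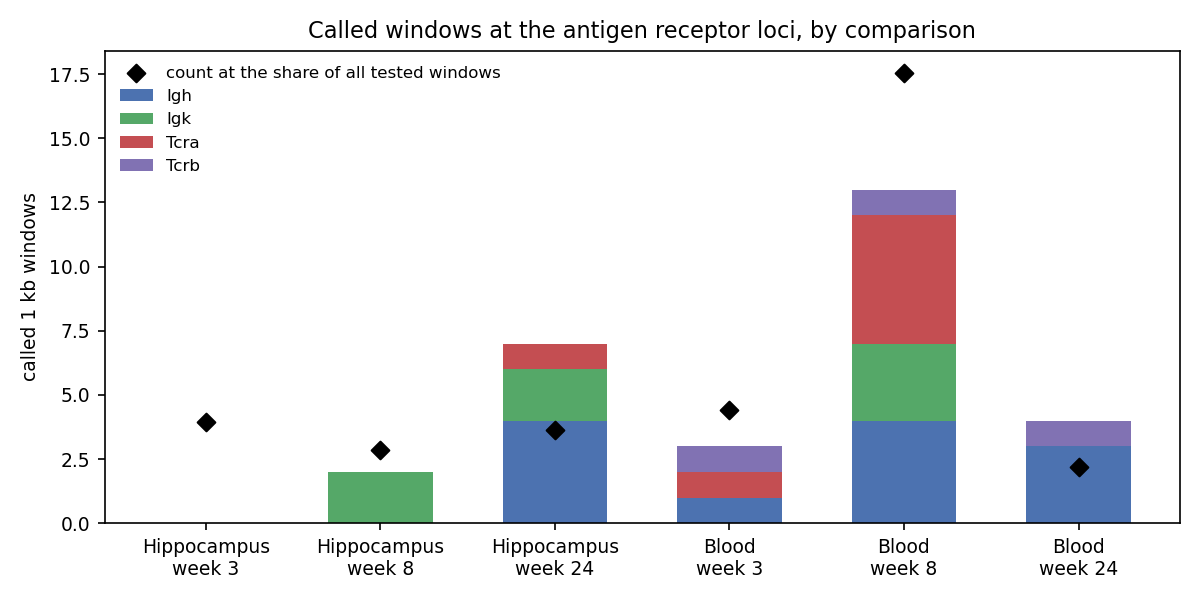
Called 1 kb windows (vertical axis, count) at Igh, Igk, Tcra and Tcrb in each comparison of APP-nlgf with Wild-type (horizontal axis), with diamonds for the count that the share of all tested windows gives over the length of all 6 loci. Hippocampus at week 24 has 7 windows against 3.64 and blood at week 8 has 13 against 17.5.

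Both directions occurred at the loci, with 15 windows higher and 14 lower in APP-nlgf. In hippocampus at week 24, 6 of 7 windows at the loci were higher, where 0.0239% of tested windows were called higher and 0.0169% lower. Blood at week 8 had 10 lower and 3 higher, where 0.175% of tested windows were called lower and 0.0218% higher. The 2 windows of hippocampus at week 8 had opposite signs, where 0.0174% were called higher and 0.0145% lower. At week 3 the 3 windows of blood were 2 higher and 1 lower, where 0.0313% were called higher and 0.0182% lower, and hippocampus had 0 in either direction, where 0.013% were called higher and 0.0311% lower. The 4 windows of blood at week 24 were 3 higher and 1 lower, where 0.0202% were called higher and 0.00426% lower. The directions at the loci thus leaned the way the whole list leaned in 4 of the comparisons: hippocampus at week 24 and blood at weeks 3, 8 and 24. The list of blood at week 8 is unlike the other 5 in that 41.9% of it lies within 1 kb of either end of a protein-coding gene, against 3.53% to 6.25% in the others. At the loci only 1 of the 13 windows did so. The V, D, J and C rows do not count as protein-coding genes here. Of protein-coding genes Igh holds 2, Tcra 4, Tcrb 13 and Igk, Igl and Tcrg 0. The low count thus follows largely from where such genes lie and is no trait of the called windows. Without such windows the loci had 12 in that comparison, where the genome's share gives 10.2, and 81.4% of the list were lower. That share too keeps gene ends among the tested windows and locus positions, so it is not fully matched.

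Differences at the loci ran from 11.0 to 28.3 points in absolute size in the authors' deposited table, with a median of 16.1 points against 12.6 points for the 8932 windows elsewhere. For blood at week 8 the authors' deposited table gives a median of 14.3 points at the loci and 11.7 points elsewhere, or 12.2 points elsewhere once windows at ends of coding genes are left out. Hippocampus at week 24 had a median of 13.9 points at the loci against 14.0 points elsewhere in the authors' deposited table. In the other comparisons with windows the authors' deposited table gives medians of 19.6 points at the loci and 13.5 points elsewhere for hippocampus at week 8, 15.8 and 14.9 points for blood at week 3, and 16.6 and 13.9 points for blood at week 24. In that order these medians at the loci rest on only 2, 3 and 4 windows, too few to compare sizes. Of the 29 adjusted p-values in the authors' deposited table, 11 were under 0.05 and 1 was under 0.01. Their median in blood was 0.0735 at the loci, against 0.0300 elsewhere, and in hippocampus 0.0502 at the loci, against 0.0607 elsewhere, in the authors' deposited table. By comparison, the median at the loci was the larger of the pair in blood at weeks 3 and 8 and the smaller in hippocampus at weeks 8 and 24 and in blood at week 24. For blood at week 8 alone, 41.2% of the whole list was under 0.01, against 1 of 13 windows at the loci.

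**Figure D3:**
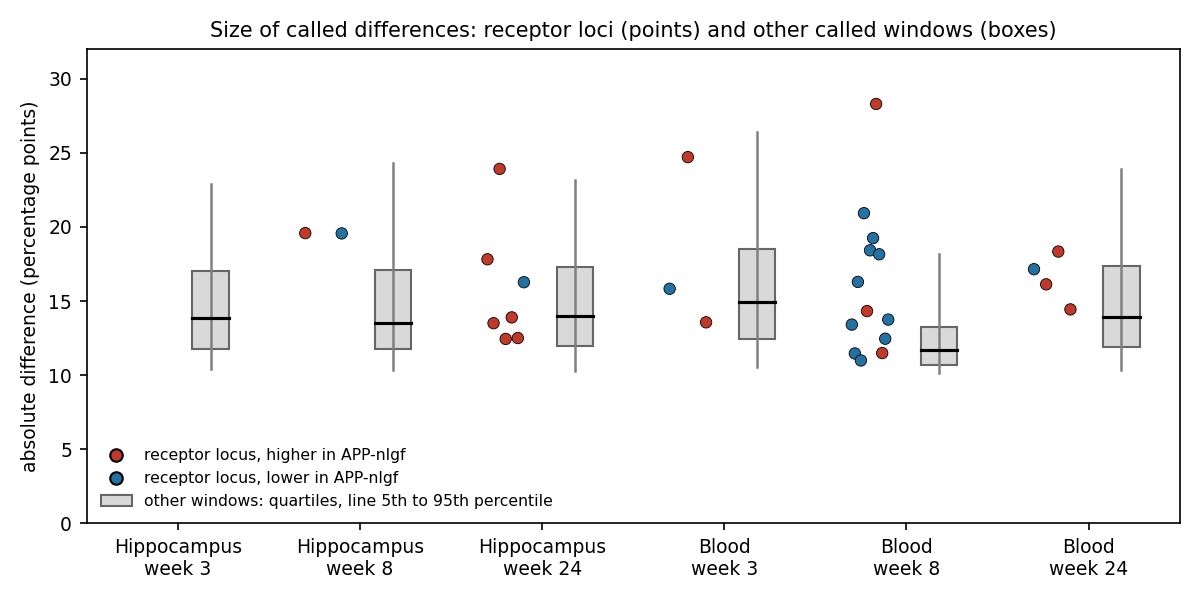
Absolute methylation difference (percentage points, vertical axis) of each called window at the receptor loci (points, red for higher and blue for lower in APP-nlgf) beside all other called windows of the same comparison (boxes for quartiles, black line for the median, grey line from the 5th to the 95th percentile). All windows shown were called at 10 points or more, and 4 of the 13 loci windows in blood at week 8 lie above the 95th percentile of 18.2 points.

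Igh, the immunoglobulin heavy chain locus, spans chromosome 12 from 113258768 to 116009954, 2.75 Mb, with 184 rows for V segments, 63 of them pseudogenes. Its 12 windows comprised 6 higher and 6 lower, where the genome's share gives 10.7 in all. All 4 windows of hippocampus at week 24 were higher, all 4 of blood at week 8 were lower, the window of blood at week 3 was lower, and blood at week 24 had 2 higher and 1 lower. All 12 lay among the V segments, and none in the 0.268 Mb of D, J and C segments at the low-coordinate end. That part is a small share of the 2.75 Mb, so none there is no result about it. Igh had 4.33 called windows per Mb, against 3.18 on the rest of chromosome 12.

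The largest heavy chain difference in the authors' deposited table was 23.9 points in hippocampus at week 24 (chr12:114643001-114644000, adjusted p = 0.0147), 2.57 kb from Ighv1-14. The family Ighv1 is the largest V family of the mouse and lies in the part of the locus distant from the D segments. Also in hippocampus at week 24, the authors' deposited table has 17.8 points in a window overlapping Ighv2-7 (chr12:113807001-113808000, adjusted p = 0.0462). The same week's other heavy chain windows in the authors' deposited table stood at 13.5 points, 6.10 kb from Ighv14-2, and 12.4 points, 8.95 kb from Ighv1-75. These 4 windows are spread over the V region, between 548 and 2565 kb from the low-coordinate end of the locus.

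Among lower windows of blood at week 8, the largest heavy chain difference in the authors' deposited table was -16.3 points in a window overlapping Ighv8-5 (chr12:115067001-115068000, adjusted p = 0.0189). A neighbouring window 10 kb further on had -11.0 points and the smallest adjusted p of all 29, 0.00684, in the authors' deposited table. The window overlapping Ighv5-7, a pseudogene at the end of the V region near the D segments, had -13.4 points (adjusted p = 0.0992) in the authors' deposited table, the member closest to the authors' limit. The remaining week 8 blood window, at -11.5 points in the authors' deposited table, lay 1.14 kb from Ighv1-14. It was 4 kb from the hippocampal week 24 window of 23.9 points, so windows of opposite sign stood beside the same V segment in the 2 tissues at different ages.

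Blood at week 24 had 18.3 points 9.80 kb from Ighv1-56 (chr12:115232001-115233000, adjusted p = 0.0202) and 16.1 points 6.23 kb from Ighv1-48, a pseudogene, in the authors' deposited table. In the other direction the authors' deposited table has -17.1 points 1.88 kb from Ighv9-3 at that age. At week 3 the only heavy chain window in blood, at -15.8 points in the authors' deposited table, was 2.79 kb from Ighv7-4. The 2 higher windows of week 24 lay on either side of the 2 lower windows of week 8 near Ighv8-5, the nearer pair 35 kb apart.

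**Figure D4:**
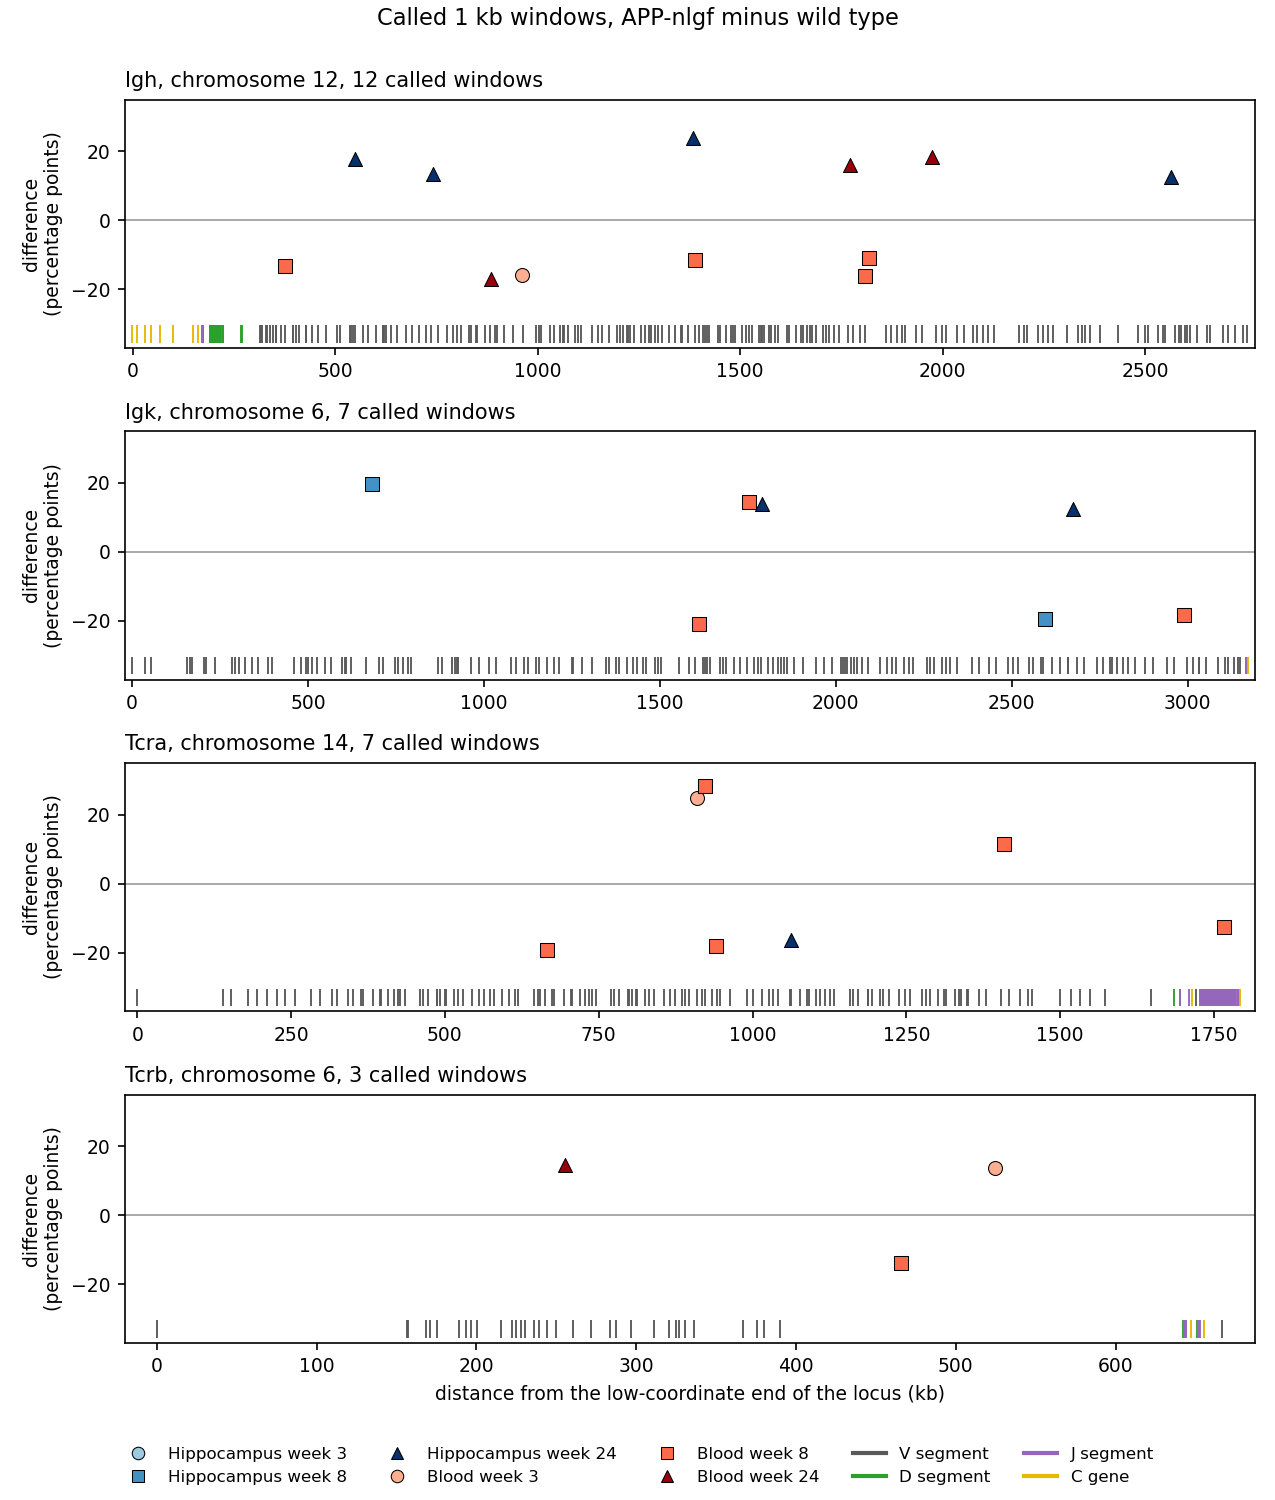
Methylation difference (percentage points, APP-nlgf minus Wild-type, vertical axis) of each called window along Igh, Igk, Tcra and Tcrb against distance from the low-coordinate end of the locus (kb, horizontal axis), with ticks for V, D, J and C rows of the gene table. Points are single windows, coloured by comparison. The 4 dark blue triangles at Igh (hippocampus at week 24) are all above 0 and its 4 squares (blood at week 8) all below.

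Igk, the kappa light chain locus, spans chromosome 6 from 67555636 to 70726754, 3.17 Mb, and was the locus with the fewest windows per length among the 4 that had any. It held 7 windows, where the genome's share gives 12.4, at 2.19 per Mb against 3.58 on the rest of chromosome 6. None of the 7 overlapped a V segment, where only 8.01% of grid positions in the locus overlap a V, J or C row. Of the 7 windows, 4 were higher and 3 lower. Both loci windows of hippocampus at week 8 were here and had opposite signs: 19.6 points (chr6:68237001-68238000, adjusted p = 0.0447), 16.3 kb from the nearest V segment, of family Igkv2, and -19.6 points (adjusted p = 0.0857), 5.84 kb from Igkv8-28, in the authors' deposited table. Hippocampus at week 24 had 13.9 points 3.00 kb from the pseudogene Igkv4-65 and 12.5 points 9.43 kb from Igkv8-23-1 in the authors' deposited table.

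In blood, kappa windows were called only at week 8, and 2 of 3 were lower. They were -20.9 points 9.42 kb from a pseudogene of family Igkv13 (chr6:69167001-69168000, adjusted p = 0.0763), -18.4 points 5.27 kb from the pseudogene Igkv3-11, and 14.3 points 3.64 kb from Igkv4-68 (adjusted p = 0.0534) in the authors' deposited table. The last of these was 36 kb from the hippocampal week 24 window beside Igkv4-65 and had the same sign. The J and C segments of Igk, in the last 4.19 kb of the locus, had no called window, which over so short a stretch is no result about them.

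Tcra, the T cell receptor alpha locus, spans chromosome 14 from 52427967 to 54224198, 1.80 Mb, and holds the delta locus Tcrd inside it. Tcra carried 7 windows, where the genome's share gives 7.04, with 3 higher and 4 lower, 6 of them in blood. None of the 7 had a segment named for delta as its nearest. The largest difference at any of the loci in the authors' deposited table was here, 28.3 points in blood at week 8 (chr14:53350001-53351000, adjusted p = 0.0837), 0.090 kb from Trav16n. It ranked 19 by absolute size among the 4526 windows of that comparison. The nearest member on the low-coordinate side, 12 kb away and called in blood at week 3, overlapped Trav13n-3 and had 24.7 points (chr14:53337001-53338000, adjusted p = 0.0752) in the authors' deposited table. On the other side, 18 kb away, blood at week 8 had -18.2 points (adjusted p = 0.0612) 0.077 kb from Trav14n-3 in the authors' deposited table. Windows 18 kb apart, each beside a V segment, thus had opposite signs within the same comparison. Both are among the values called uncertain below because their nearest segments have further copies.

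The other blood windows of week 8 at Tcra were -19.2 points 2.13 kb from Trav7n-4, 11.5 points 5.17 kb from Trav18 and -12.5 points across the joining segments Traj26 and Traj25 (chr14:54194001-54195000, adjusted p = 0.0424) in the authors' deposited table. The last was the only window of the 29 to overlap a J segment. In hippocampus, Tcra had a window at week 24 alone, with -16.3 points across Trav6-5 (adjusted p = 0.0846) in the authors' deposited table, the only lower window of that tissue and week at the loci. Much of the Trav region is duplicated, with copies marked by the letters n and d, of which the gene table lists 34 and 40. Of the 7 windows, 5 were nearest to a V segment that has 2 further named copies in the table: Trav7n-4, Trav13n-3, Trav16n, Trav14n-3 and Trav6-5. Reads from such copies can be hard to place, and how the authors treated reads that fit several places is not given in the sources used here, so these 5 values are uncertain.

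Tcrb, the T cell receptor beta locus, spans chromosome 6 from 40891296 to 41558371, 0.667 Mb, and had 3 windows, where the genome's share gives 2.66. All were in blood, 1 at each age. At week 24 the authors' deposited table has 14.4 points (chr6:41147001-41148000, adjusted p = 0.0181), 3.79 kb from Trbv16. The other 2 lay in the stretch between the V and the D segments that holds trypsinogen genes, which encode digestive enzymes of the pancreas. Blood at week 8 had -13.7 points across the trypsinogen gene Try10 (chr6:41357001-41358000, adjusted p = 0.0214), and blood at week 3 had 13.6 points across the pseudogene Gm5409 (chr6:41416001-41417000, adjusted p = 0.0945) in the authors' deposited table. These were 75.01 kb and 116 kb from the nearest receptor segment. The Try10 window was also the only member within 1 kb of either end of a protein-coding gene.

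Igl, the lambda light chain locus (chromosome 16 from 19026858 to 19260844, 0.234 Mb), and Tcrg, the gamma locus (chromosome 13 from 19178042 to 19356476, 0.178 Mb), are the shortest of the 6 and had no called window. At the genome's share they would hold 0.987 and 0.770 windows, so an empty locus of this length is not a result about it. The called window nearest to Tcrg was 37.5 kb away, in hippocampus at week 3, with -17.6 points (adjusted p = 0.0893) in the authors' deposited table. Beyond 10 kb the only other called window within 50 kb of any locus was 21.6 kb from Igk, in blood at week 8, at -10.2 points in the authors' deposited table. For Igl the nearest was 200 kb away, at 29.5 points in hippocampus at week 8 in the authors' deposited table.

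The 29 windows occupied 29 different 1 kb positions, and none was called in more than 1 comparison. Over the whole list 18 of 8942 positions, or 0.201%, were called in more than 1, so none among 29 is no trait of the loci. Only 1 pair, the windows beside Ighv1-14, lay less than 10 kb apart. Of the 29 windows, 6 overlapped a V, D, J or C row, or 20.7%, where 10.6% of grid positions in the loci do. Within 5 kb of a row lay 16 windows, or 55.2%, against 59.2% of grid positions. The 6 overlaps were 3 of 12 windows at Igh and 3 of 7 at Tcra, with 0 of 7 at Igk and 0 of 3 at Tcrb, and the shares were not tested. A missing window may have shown no difference, failed a threshold or been thinly covered, and the list does not separate these.

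Genes listed as acting on the loci or in receptor signalling were looked at beside them. The 69 genes came from 4 lists, covering recombination and end joining, class switching, receptor signalling partners and factors that fold or open the loci. Of these genes 14 had a called window in any comparison, a share that was not worked out over all genes. Their windows were 14 lower and 1 higher. Blood at week 8 held 10 of the 15 windows, with 9 lower, where 88.9% of all windows were lower. The rest were 3 in hippocampus at week 3, 1 in hippocampus at week 24 and 1 in blood at week 3, all lower. Of all windows in those lists 70.5%, 41.4% and 36.8% were lower. In blood at week 8 the listed genes with a window numbered 10 of 69, or 14.5%, where 12.4% of all 49205 genes had one. These 49205 genes include noncoding ones, with 21517 protein-coding. The share among protein-coding genes alone was not worked out, here or where a share of all genes is given below. In hippocampus they were 3 of 69 at week 3, 0 at week 8 and 1 at week 24, where 1.8%, 1.29% and 1.68% of all genes had one. In blood at week 3 there was 1 of 69 and at week 24 there were 0, where 1.98% and 0.947% of all genes had one.

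Recombination and end-joining genes had windows in 3 of 16 members, or 18.8%, in blood at week 8, where 12.4% of all genes had one. All 3 were lower, as were 88.9% of all windows in that comparison. Atm, the kinase that signals DNA breaks, had -13.3 points (adjusted p = 3.16e-06) in the authors' deposited table, in the window that holds its promoter printed above. Nhej1, an end-joining factor that acts with Xrcc4, had -12.6 points in the window that holds its promoter (adjusted p = 0.000389), and Dclre1c, the nuclease Artemis that opens hairpin ends, had -13.8 points 4.06 kb away (adjusted p = 0.000778) in the authors' deposited table. These adjusted p-values are all smaller than that of any window at the loci. That does not hold for other listed genes such as Prkdc, Pax5 and Cd4, whose values are given below. The Atm and Nhej1 windows lay within 1 kb of an end of a protein-coding gene, as 41.9% of that list did. Of the 13 windows at the loci in that list only 1 did. In hippocampus at week 3, Prkdc, the catalytic subunit of the DNA-dependent protein kinase, had -17.1 points (adjusted p = 0.0937) in the authors' deposited table. The recombinase gene Rag2 had -15.2 points 1.71 kb away (adjusted p = 0.0597) in the same comparison of the authors' deposited table. At week 24 the authors' deposited table has -12.8 points inside Xrcc4 (adjusted p = 0.0834). Class switching and hypermutation genes had 0 of 8 members with a window in every comparison. At 12.4% of all genes in blood at week 8, and smaller shares in the other lists, few of 8 would have one. That 0 is therefore no result about these genes.

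The list of factors that fold or open the loci had windows in 6 of 23 members, or 26.1%, in blood at week 8. Of all genes, noncoding ones included, 12.4% had one. Ikzf1, the lymphoid factor Ikaros, was the only pathway gene with a higher window, at 26.2 points (adjusted p = 0.0159) in the authors' deposited table. Lower at that age in the authors' deposited table was Runx1, a blood stem cell and lymphoid factor, at -14.8 points (adjusted p = 0.00114). So were Pax5, the B lineage factor, at -14.1 points (adjusted p = 0.0914), and Bcl11b, the T lineage factor, at -11.1 points (adjusted p = 0.0882). The E protein gene Tcf3, also lower at -10.3 points (adjusted p = 0.0221), had its window 7.54 kb away in the authors' deposited table. E2f2, at -11.6 points 9.94 kb away (adjusted p = 0.00594) in the authors' deposited table, is counted in the list. It is a cell cycle factor of the E2F family. A part for E2f2 in folding or opening the loci is not shown here. The windows counted for Tcf3 and E2f2 each lay within 1 kb of an end of another protein-coding gene. In that list 41.9% of windows lay at such ends, so these windows need not belong to the listed genes. Runx1 also had a lower window in blood at week 3, at -14.2 points (adjusted p = 0.0535) in the authors' deposited table. The cohesin gene Smc1a had -13.4 points 5.43 kb away (adjusted p = 0.0643) in hippocampus at week 3 in the authors' deposited table. Among signalling partners 1 of 22, or 4.55%, had a window in blood at week 8. It was at Cd4, with -10.2 points 8.75 kb away (adjusted p = 0.0874) in the authors' deposited table.

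**Figure D5:**
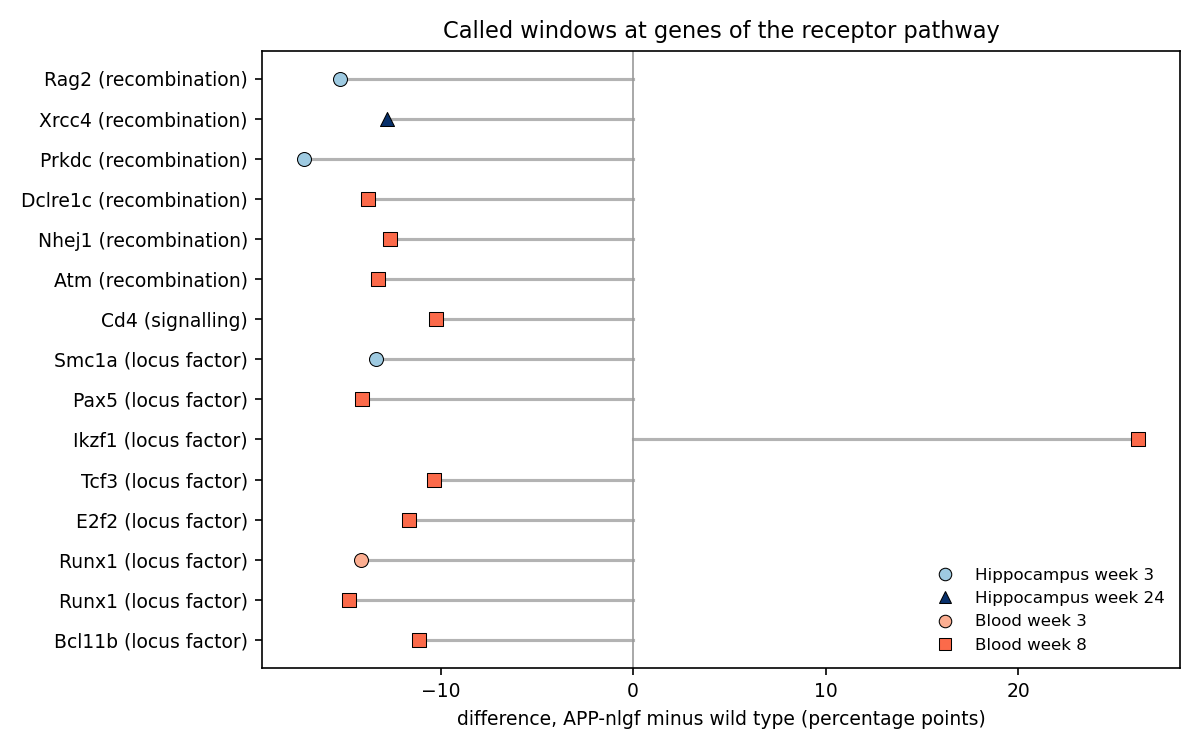
Methylation difference (percentage points, APP-nlgf minus Wild-type, horizontal axis) of the 15 called windows in or within 10 kb of genes of the receptor pathway lists (vertical axis), coloured by comparison. The window in Ikzf1 at 26.2 points is the only one above 0.

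Lists of cell markers held 10 genes each. In blood at week 8, where 12.4% of all genes had a called window and 88.9% of windows were lower, there were 2 of 10 B cell markers (Pax5 and Fcer2a), 2 of 10 T cell markers (Cd4 and Bcl11b), 1 of 10 erythroid markers (Epor), 3 of 10 neuron and glia markers and 0 of 10 myeloid markers, all lower in APP-nlgf. The windows counted for Fcer2a and Epor lay 3.28 kb and 1.90 kb away, within 1 kb of an end of another protein-coding gene. At week 24 in blood, where 0.947% of all genes had a window, the myeloid marker Csf3r had a higher one. At week 3, 1 of 10 neuron and glia markers had a lower window in hippocampus and 1 in blood, where 1.8% and 1.98% of all genes had one. The part of cell composition in the differences at the loci was not tested.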

How the data were processed

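Genomic DNA was sheared, made into libraries, bisulfite converted and amplified, per the labels' protocols, with different extraction kits for hippocampus and blood. The submitters' processing notes name mm10 and, for reads and calls, FastQC, Trim Galore, Bismark and methylKit. No source used here gives their versions, the test, the coverage filter or the adjustment method. The values are the authors' deposited p-values, adjusted p-values and methylation differences in percentage points for 1 kb windows, none with an adjusted p of 0.1 or more or with a difference smaller than 10 points in either direction. Columns of values per library numbered 0, so no test over animals was possible and none was run.

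Windows were placed on the RefSeq gene table of GRCm38.p6 with Python 3.11.15 and pandas 2.3.3. The number of tested windows, 2303886 to 2330500, was worked out from how each p compares with its adjusted value, assuming Benjamini-Hochberg adjustment. Of the ranks used, 81.0% to 90.7% came out whole within 0.02. The recovery was tested on simulated data. Every window at the loci is reported, and every pathway gene with a window is named. Of the cell marker lists, 1 result is not reported here. The loci and lists were chosen with earlier results of these data known. Alternatives changed the distance, thresholds, merging and locus bounds.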

Additional observations from a re-analysis of the deposited data

How the results depend on the processing

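The count of windows at the loci was recomputed for each comparison under 6 alternatives, and under a further one, leaving out windows within 1 kb of either end of a protein-coding gene, that was chosen after seeing the data. Counting only overlapping windows or taking the bounds of the outermost segments left 29 windows in all, merging windows of a list and direction within 10 kb or leaving out gene ends left 28, and in these 4 settings each comparison stayed within 1.5 times its count. Within 50 kb there were 31, with 1 in hippocampus at week 3 in place of 0. An adjusted p under 0.01 left 0 windows in hippocampus at weeks 8 and 24 and in blood at weeks 3 and 24, and 1 in blood at week 8. A difference of at least 15 points left 16 in all, with 3 in hippocampus at week 24 and 6 in blood at week 8. No paired analysis was possible because no values per library were used and no test was run. Depth is unknown, so how many reads stand behind each difference cannot be said.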
